A study of Mus musculus with 7 samples.

Results

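Genes of leukocyte adhesion and homing were followed in single cells from the central nervous system of mice with experimental autoimmune encephalomyelitis (EAE), a T cell driven inflammation of brain and spinal cord. The set is 9 genes picked by symbol (Itga4, Itgb1, Itgb7, Itgal, Itgb2, Selplg, S1pr1, Klf2 and Cd44), and all 9 are among the 27998 genes listed in every one of the 7 libraries. Cells were taken at the peak of disease and enriched on beads for CD4 or for CD45, the surface protein of all leukocytes. The Lag3KO groups comprised 2 libraries of CD4 enriched cells (Lag3KO_CD4) and 1 of CD45 enriched cells (Lag3KO_CD45), from mice with the genotype label Lag3Floxed. The WT groups comprised 2 libraries of each enrichment (WT_CD4 and WT_CD45), from mice labelled Lag3wt. Lag3 encodes an inhibitory receptor of activated T cells. All mice were of the B6 strain and had received MOG35-55 peptide, a piece of a myelin protein. The labels describe the mice as matched for age and sex, with 5 mice per group, and a Cre driver or an age is not given in the sources used here. The animals behind each library are not named, so p-values here measure the spread between libraries, which may be technical.

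Integrins are paired alpha and beta chains that let leukocytes hold on to vessel walls and matrix. Itga4 and Itgb1 encode VLA-4, which binds VCAM-1 on inflamed endothelium and guides entry into the central nervous system; the same alpha chain pairs with the product of Itgb7 to bind MAdCAM-1 of gut vessels. Itgal and Itgb2 encode LFA-1, the receptor for ICAM-1. Selplg encodes PSGL-1, the scaffold for selectin ligands, and Cd44 encodes a receptor for hyaluronan that is kept high on T cells that have met antigen. S1pr1 encodes the sphingosine 1-phosphate receptor with which lymphocytes leave lymph nodes, and the transcription factor encoded by Klf2 drives it.

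Start regions of Itga4 and Itgb1, which encode VLA-4, and of Klf2, the gene whose level moved most between the CD4 and CD45 libraries, are shown first. Each window runs from 250 bases before to 50 bases after the RefSeq start of the gene on GRCm38.p6, plus strand. The windows are chr2:79255176-79255475 for Itga4, chr8:128685404-128685703 for Itgb1 and chr8:72318812-72319111 for Klf2. RefSeq windows were found for 5 of the 9 genes. Capitals mark CACCC on either strand (so also GGGTG), the letters that KLF family proteins favour, and the core of the box that MEF2 factors bind, CTA and TAG on one strand with any 4 bases between.
Itga4: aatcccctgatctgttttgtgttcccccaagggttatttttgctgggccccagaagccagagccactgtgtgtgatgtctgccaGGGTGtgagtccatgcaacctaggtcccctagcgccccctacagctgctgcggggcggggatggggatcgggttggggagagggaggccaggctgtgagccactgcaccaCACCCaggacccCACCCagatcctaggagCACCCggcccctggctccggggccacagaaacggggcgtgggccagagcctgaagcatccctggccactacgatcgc
Itgb1: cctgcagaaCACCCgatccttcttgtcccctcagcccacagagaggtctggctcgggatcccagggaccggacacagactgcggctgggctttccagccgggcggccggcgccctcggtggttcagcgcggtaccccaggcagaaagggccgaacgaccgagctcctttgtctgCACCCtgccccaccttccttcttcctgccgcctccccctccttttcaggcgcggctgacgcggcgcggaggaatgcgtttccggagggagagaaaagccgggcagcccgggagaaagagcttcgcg
Klf2: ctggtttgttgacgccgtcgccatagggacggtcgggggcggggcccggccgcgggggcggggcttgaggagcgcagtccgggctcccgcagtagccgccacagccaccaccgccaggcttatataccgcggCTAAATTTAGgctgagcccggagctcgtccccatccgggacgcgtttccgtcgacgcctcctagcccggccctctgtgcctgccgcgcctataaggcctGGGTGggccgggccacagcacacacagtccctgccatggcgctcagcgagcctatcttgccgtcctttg
The Itga4 window held CACCC 4 times, that of Itgb1 2 times and that of Klf2 1 time. The windows of Itgb7 and Cd44, not shown, held it 4 and 0 times. Of 32851 promoter windows of the same length, 57.5% held it at least once. The letters GGGCGG, on either strand, stood 2 times in Klf2, 1 time each in Itga4, Itgb1 and Cd44, and 0 times in Itgb7. Of all windows, 35.7% held GGGCGG. Among the 5 windows, the MEF2 core stood in that of Klf2, as CTAAATTTAG, and 3.69% of all windows held it. These are matches of letters in the windows. The genes themselves lie at chr2:79255426-79333123 (Itga4, plus strand), chr8:128685654-128733200 (Itgb1, plus strand), chr3:115710433-115715072 (S1pr1, minus strand) and chr8:72319033-72321656 (Klf2, plus strand) on GRCm38. Itga4 overlaps Cerkl, and Cd44 overlaps Gm23731, on the opposite strand.

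The CD4 libraries held 1428 to 2033 barcodes with medians of 2086.5 to 2599.5 UMIs (unique molecules counted), and the CD45 libraries 2239 to 2517 barcodes with medians of 5683 to 6407 UMIs. Lag3 stood at 0.194 and 0 UMIs per 1000000 UMIs of the library (CPM) in the Lag3KO_CD4 libraries and at 0.106 CPM in the Lag3KO_CD45 library, against 50.02 and 23.3 CPM in the WT_CD4 libraries. The first WT_CD45 library had 16.4 CPM of Lag3, but the library labelled WT_CD45 2 had 0.250 CPM, from 4 UMIs, which goes against its label. Several counts of called genes are also given without that library. Most genotype differences of single genes count it as WT and are not given without it. The CD4 libraries held the female transcript Xist and the CD45 libraries transcripts of Y-linked genes, so enrichment cannot be told apart from sex. The labels name no batch, and a batch that goes with the enrichment could not be told apart from it either. Each CD4 library listed 27998 genes and each CD45 library 28692, so the gene list goes with the enrichment too. Any pair of libraries shared 0 to 12 barcodes. Haemoglobin transcripts in Tconv stood at 133.6 CPM in the second Lag3KO_CD4 and 36.6 CPM in the second WT_CD4 library and at 0 in the others, and a block for them changed no call of the 9 genes. Cells were assigned by marker genes to conventional CD4 T cells (Tconv; 3519 in the CD4 and 441 in the CD45 libraries), regulatory T cells (Tregs; 1491 and 124), monocytes or macrophages (211 and 2415) and other classes, from clusters made without the 9 genes. Barcodes with T cell and myeloid RNA together were set apart; they numbered 16 to 42 in the CD4 and 426 to 601 in the CD45 libraries. In the CD45 libraries Cd3e, a T cell receptor chain, was at 831 CPM in Tconv, 752 CPM in Tregs and 6.04 CPM in monocytes or macrophages. Cd3e was among the genes used to name the classes, so these levels follow in part from the naming. Foxp3, which defines Tregs, was at 120.4 CPM in Tregs and 2.59 CPM in Tconv there, but at 10.7 CPM in Tregs and 0.596 CPM in Tconv of the CD4 libraries. Ikzf2, another Treg marker, was at 571 CPM in Tregs and 67.2 CPM in Tconv of the CD4 libraries, and at 873 CPM in Tregs and 27.2 CPM in Tconv of the CD45 libraries. Foxp3 and Ikzf2 were likewise among the genes used to name Tregs, so their excess over Tconv follows in part from the naming.

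Levels of the 9 genes below are CPM of the UMIs summed over the cells of a class in a library, and are compared for 1 gene at a time between classes or groups. Differences are log2 values ± standard error (SE) from edgeR's quasi-likelihood test on the summed counts, with p-values adjusted by Benjamini-Hochberg over all genes tested and called under 0.05. In summed data, fewer expressing cells and less RNA per cell cannot be told apart.

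**Figure D1:**
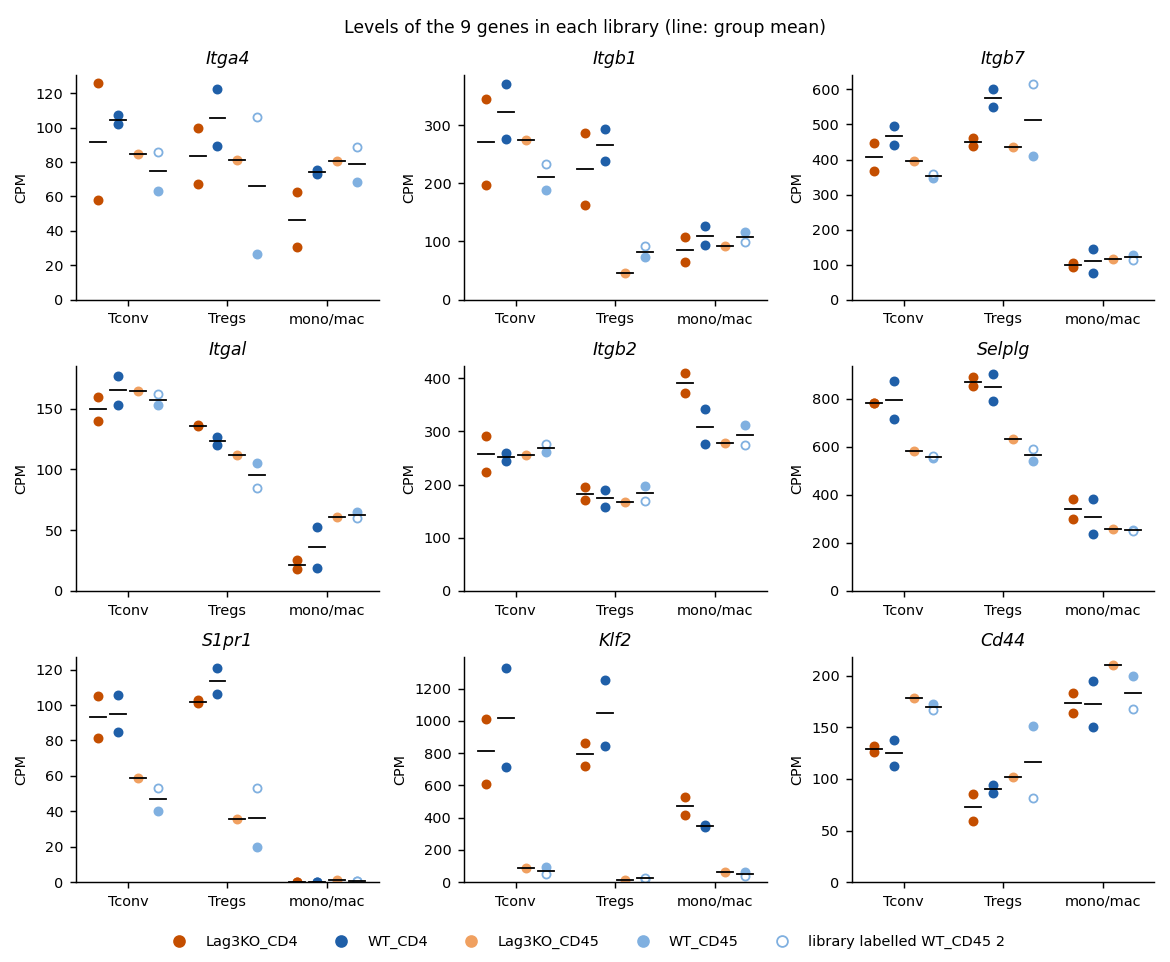
Level (CPM, linear axis from 0) of each gene in Tconv, Tregs and monocytes or macrophages (mono/mac), with 1 point per library, a line at the group mean and an open point for the library labelled WT_CD45 2. S1pr1 lies near 0 in monocytes or macrophages, and Klf2 separates the CD4 libraries from the CD45 libraries in all 3 classes.

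Conventional T cells carried more Itgb1, Itgb7, Itgal, Selplg and S1pr1 RNA than monocytes or macrophages of the same CD45 libraries, and, under the TMM scaling but not under library size alone, less Itgb2 and Cd44. These were 7 of the 9 genes, with 5 higher and 2 lower in Tconv, where 59.8% of 5311 genes tested were called, a background against which 7 of 9 is no unusual share. The median log2 difference over the 9 genes was 0.89, beside 0.02 over all genes tested. Itga4 and Klf2 did not pass the test. All 7 stayed called when each CD45 library was left out in turn, the library labelled WT_CD45 2 included.

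Itga4, the alpha chain of VLA-4, had 84.6 CPM in Tconv of the Lag3KO_CD45 library, and 62.9 and 86.1 CPM in Tconv of the WT_CD45 libraries. Monocytes or macrophages had 80.4 CPM in the Lag3KO_CD45 library, and 68.5 and 88.9 CPM in the WT_CD45 libraries. The classes overlapped, and the log2 difference of Tconv minus monocytes or macrophages was -0.30 ± 0.17 (adjusted p = 0.113). Itgb1, the beta chain of VLA-4 and of many other integrins, had 275 CPM in Tconv of the Lag3KO_CD45 library, and 189 and 233 CPM in Tconv of the WT_CD45 libraries. In monocytes or macrophages it had 92.0 CPM in the Lag3KO_CD45 library, and 116 and 99.9 CPM in the WT_CD45 libraries. Every Tconv value lay above every myeloid value, with a log2 difference of 0.92 ± 0.14 (adjusted p = 1.15e-06). So of the VLA-4 pair, the beta chain and not the alpha chain passed the test between Tconv and monocytes or macrophages.

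Itgb7, the other partner of the Itga4 product, had 395 CPM in Tconv of the Lag3KO_CD45 library, and 348 and 358 CPM in Tconv of the WT_CD45 libraries. Monocytes or macrophages had 116 CPM in the Lag3KO_CD45 library, and 128 and 114 CPM in the WT_CD45 libraries. The groups did not overlap, and Itgb7 was higher in Tconv by 1.35 ± 0.13 log2 (adjusted p = 5.62e-11).

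The chains of LFA-1 differed in opposite directions under the TMM scaling, and under library size alone Itgb2 did not pass the test. Itgal, the alpha chain that only leukocytes make, had 165 CPM in Tconv of the Lag3KO_CD45 library, and 153 and 162 CPM in Tconv of the WT_CD45 libraries. Monocytes or macrophages had 61.0 CPM in the Lag3KO_CD45 library, and 64.9 and 60.1 CPM in the WT_CD45 libraries. Tconv were higher in every library, by 1.11 ± 0.13 log2 (adjusted p = 9.71e-09). Itgb2, the beta chain shared by LFA-1 and the myeloid integrins Mac-1 and CD11c/CD18, had 256 CPM in Tconv of the Lag3KO_CD45 library, and 261 and 276 CPM in Tconv of the WT_CD45 libraries. In monocytes or macrophages it had 279 CPM in the Lag3KO_CD45 library, and 313 and 275 CPM in the WT_CD45 libraries. The ranges of Itgb2 overlapped, and the log2 difference under the TMM scaling was -0.38 ± 0.11 (adjusted p = 0.00448).

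Selplg had 581 CPM in Tconv of the Lag3KO_CD45 library, and 552 and 559.8 CPM in Tconv of the WT_CD45 libraries. Monocytes or macrophages had 259.8 CPM in the Lag3KO_CD45 library, and 253 and 250.2 CPM in the WT_CD45 libraries. The scaffold of selectin ligands was thus higher in Tconv in all 3 libraries, by 0.89 ± 0.10 log2 (adjusted p = 2.8e-09). Cd44 had 179 CPM in Tconv of the Lag3KO_CD45 library, and 173 and 166 CPM in Tconv of the WT_CD45 libraries. In monocytes or macrophages it had 210.1 CPM in the Lag3KO_CD45 library, and 199 and 167 CPM in the WT_CD45 libraries. Cd44 was lower in Tconv by the test, at -0.40 ± 0.13 log2 (adjusted p = 0.00819). Scaling by library size alone moved the median difference over all genes from 0.02 to 0.29 log2 and the share of called genes that were higher in Tconv from 48.4% to 63.8%. Under it the differences of Itgb2 and Cd44 were -0.11 (adjusted p = 0.386) and -0.13 (adjusted p = 0.375) and no longer called, while Klf2 reached 0.42 (adjusted p = 0.0329); relative to the median of all genes, Itgb2 and Cd44 stayed lower. With classes cut by marker genes in place of clusters, Cd44 was at -0.27 (adjusted p = 0.259).

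S1pr1, the receptor for exit from lymph nodes, had 58.8 CPM in Tconv of the Lag3KO_CD45 library, and 40.4 and 53.5 CPM in Tconv of the WT_CD45 libraries. Monocytes or macrophages had 1.37 CPM in the Lag3KO_CD45 library, and 0.727 and 0.894 CPM in the WT_CD45 libraries, from 15 UMIs over 2415 cells. The separation was the widest of the 9 genes, at 5.30 ± 0.36 log2 (adjusted p = 1.75e-14). In the CD4 libraries, 211 monocytes or macrophages gave 0 UMIs of S1pr1, where 3 UMIs would be 3.03 CPM. Klf2, whose product drives S1pr1 in T cells, had 87.0 CPM in Tconv of the Lag3KO_CD45 library, and 92.1 and 50.5 CPM in Tconv of the WT_CD45 libraries. Klf2 in monocytes or macrophages had 64.0 CPM in the Lag3KO_CD45 library, and 64.3 and 41.6 CPM in the WT_CD45 libraries. These ranges overlapped, and Klf2 differed by 0.16 ± 0.17 log2 (adjusted p = 0.444). When the CD4 libraries were added to the fit, Klf2 was called at 0.53 ± 0.22 (adjusted p = 0.0424).

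Myeloid transcripts stood in the T cell classes too. The summed level of 20 myeloid genes was 5461 to 6418 CPM in Tconv of the CD45 libraries, against 109031 to 117693 CPM in their monocytes or macrophages. The summed level of 8 T cell genes was 5989 to 6634 CPM in Tconv and 55.3 to 70.9 CPM in monocytes or macrophages. Of the 20, 0 to 1 were at 0 in Tconv of a library, and of the 8, 0 were at 0 in monocytes or macrophages of the CD45 libraries. Over the CD45 libraries, Lyz2, C1qa and Ly6c2 stood at 349.7, 139 and 130.2 CPM in Tconv, against 26872, 1398 and 2050.2 CPM in monocytes or macrophages. Barcodes with T cell and myeloid RNA together had been set apart, and Cd3e took part in naming the classes. These steps by themselves hold down T cell RNA in myeloid classes and myeloid RNA in T cell classes. The part of such transcripts in the class differences was not tested.

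**Figure D2:**
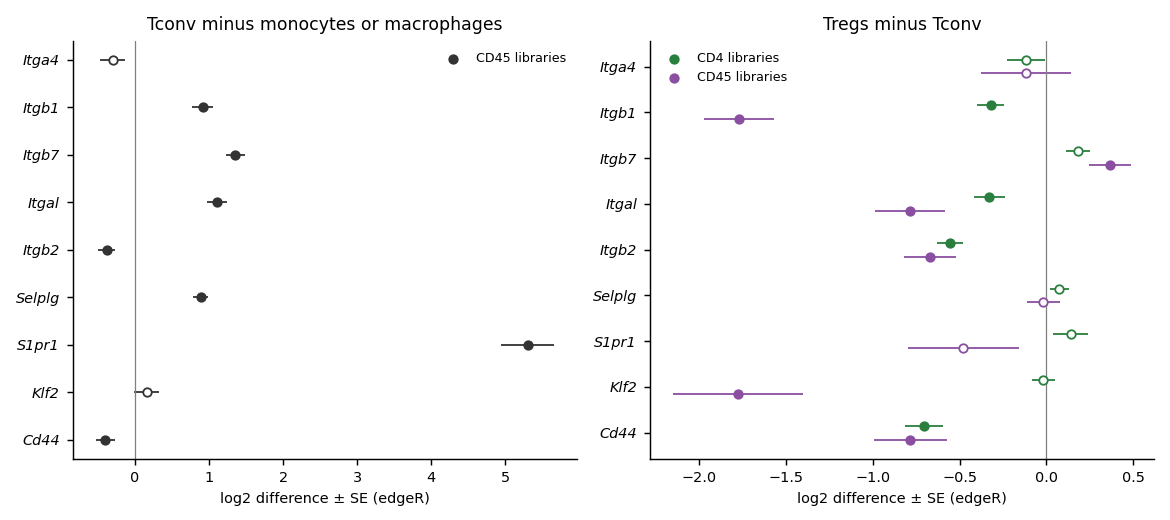
Log2 difference ± SE of each gene for Tconv minus monocytes or macrophages in the CD45 libraries (left) and for Tregs minus Tconv within the CD4 and the CD45 libraries (right), with filled points for adjusted p under 0.05. S1pr1 lies at 5.30 on the left, and on the right Itgb1 and Klf2 lie further below 0 in the CD45 libraries than in the CD4 libraries.

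Regulatory T cells carried less Itgb1, Itgal, Itgb2 and Cd44 RNA than Tconv of the same libraries, and without 2 clusters led by Ttr Itgal was not called (adjusted p = 0.0604). These 4 of the 9 genes were called over all 7 libraries, where 11.9% of 6923 genes tested were called, and the set stayed at 4 when each library was left out. The median over the 9 genes was -0.15 log2, beside 0.00 over all genes tested. Itga4, Selplg, S1pr1 and Klf2 did not pass the test over all libraries, and Itgb7 was at 0.23 ± 0.08 (adjusted p = 0.0743). Itgb7 was called higher in Tregs under library size alone (0.30, adjusted p = 0.0188), with mixed barcodes clustered with the rest (0.33, adjusted p = 0.00294) and with the 9 genes among the variable genes (0.30, adjusted p = 0.0101).

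For LFA-1, both chains were lower in Tregs, the alpha chain Itgal only with the clusters led by Ttr described below included. Itgb2 had 196 and 170.1 CPM in Tregs of the Lag3KO_CD4 libraries and 190.5 and 157 CPM in Tregs of the WT_CD4 libraries, against 291 and 223 CPM in Tconv of the Lag3KO_CD4 libraries and 259 and 243 CPM in Tconv of the WT_CD4 libraries. In the CD45 libraries Tregs had 167 CPM (Lag3KO) and 198 and 169.9 CPM (WT), below the 256 to 276 CPM of Tconv. Tregs were below Tconv in 7 of 7 libraries, by -0.59 ± 0.08 log2 (adjusted p = 3.07e-05). Itgal had 136.3 and 135.6 CPM in Tregs of the Lag3KO_CD4 libraries and 126 and 120.1 CPM in Tregs of the WT_CD4 libraries, against 140.2 to 177 CPM in Tconv of the 4 CD4 libraries. In the CD45 libraries Itgal had 112 CPM in Tregs of the Lag3KO library, and 105.5 and 84.9 CPM in Tregs of the WT libraries, all under the Tconv values above. The log2 difference was -0.43 ± 0.10 (adjusted p = 0.00687).

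Cd44 had 85.0 and 59.7 CPM in Tregs of the Lag3KO_CD4 libraries and 86.2 and 94.5 CPM in Tregs of the WT_CD4 libraries, against 113 to 138 CPM in Tconv of the 4 CD4 libraries. In the CD45 libraries Tregs had 101.5 CPM in the Lag3KO library, and 152 and 81.4 CPM in the WT libraries. Cd44 was lower in Tregs than in Tconv in 7 of 7 libraries, by -0.72 ± 0.11 log2 (adjusted p = 0.00012). Itgb1 had 163 and 286 CPM in Tregs of the Lag3KO_CD4 libraries and 239 and 294 CPM in Tregs of the WT_CD4 libraries, against 197 and 345 CPM in Tconv of the Lag3KO_CD4 libraries and 276 and 371 CPM in Tconv of the WT_CD4 libraries. In the CD45 libraries Tregs had 45.7 CPM (Lag3KO) and 72.5 and 92.0 CPM (WT), far under the 189 to 275 CPM of Tconv. The log2 difference over all libraries was -0.60 ± 0.15 (adjusted p = 0.0139), made up of -0.32 ± 0.08 (adjusted p = 0.00183) within the CD4 and -1.77 ± 0.20 (adjusted p = 8e-09) within the CD45 libraries.

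Within each enrichment, the same 4 genes were called in the CD4 libraries (16% of genes called), and 6 genes in the CD45 libraries (10.4% of genes called): the 4, Klf2 at -1.78 ± 0.37 (adjusted p = 0.000625) and Itgb7 at 0.37 ± 0.12 (adjusted p = 0.0462). Without the library labelled WT_CD45 2, 3 of the 9 were called in the CD45 libraries, with Itgb7 at 0.07 ± 0.15 (adjusted p = 0.887), Itgal at -0.66 ± 0.25 (adjusted p = 0.13) and Cd44 at -0.61 ± 0.26 (adjusted p = 0.189). Itgb7 was also lost without the second WT_CD4 library (adjusted p = 0.0555), under DESeq2 (0.132) and without a filter on low counts (0.146), and Cd44 without the Lag3KO_CD45 library (0.0723) and without the clusters led by Ttr described below (0.0893). Within the CD4 libraries, Itgal was lost without the first or the second WT_CD4 library (adjusted p = 0.0577 and 0.149), under DESeq2 (0.0641) and without the clusters led by Ttr (0.0829). The gap between Tregs and Tconv differed between the CD4 and the CD45 libraries for Itgb1, by 1.45 ± 0.22 log2 (adjusted p = 1.53e-05), and for Klf2, by 1.76 ± 0.38 log2 (adjusted p = 0.00238), with 5.04% of genes called. Without the Lag3KO_CD45 library, the value of Klf2 was 1.42 ± 0.44 (adjusted p = 0.0805). Tregs of the CD45 libraries numbered 28 to 62 per library, and gave 14 UMIs of Klf2 over 124 cells in all. A summed level of 14 immediate early genes, which respond within minutes to stimulation and tissue handling, was 5585 to 5747 CPM in Tregs of the CD4 libraries and 2273 to 3313 CPM in Tregs of the CD45 libraries; its part in these differences was not tested. One Treg cluster of the CD4 libraries (302 cells) and 1 Tconv cluster of the CD45 libraries (179 cells) were led by Ttr, the transthyretin gene of the choroid plexus. Without these clusters, an alternative chosen after seeing the data, Itgb1 (-0.48 ± 0.14, adjusted p = 0.0309), Itgb2 (-0.62 ± 0.09, adjusted p = 9.8e-05) and Cd44 (-0.69 ± 0.11, adjusted p = 0.000361) stayed lower in Tregs over all libraries, and Itgal was at -0.32 ± 0.10 (adjusted p = 0.0604). The gap between the enrichments was then 1.13 ± 0.24 for Itgb1 (adjusted p = 0.00142) and 1.56 ± 0.42 for Klf2 (adjusted p = 0.0164).

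Loss of Lag3 came with no called change in any of the 9 genes. In Tconv over both enrichments, 0 of 9 were called by edgeR, with 0% of 9400 genes called; 0 of 9 reached an unadjusted p under 0.05 (303 of all genes did), and DESeq2 called 0 genes. In Tregs, 0 of 9 were called by edgeR, with 0.115% of 7841 genes called; 2 of 9 reached an unadjusted p under 0.05 (298 of all genes did), and DESeq2 called 6 genes, none of the 9. In monocytes or macrophages of the CD45 libraries, 0 of the 8 genes tested were called by edgeR, with 0% of 10243 genes called; 0 of 8 reached an unadjusted p under 0.05 (390 of all genes did), and DESeq2 called 0 genes. That last fit has 1 Lag3KO and 2 WT libraries and 1 residual degree of freedom.

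The VLA-4 chains overlapped between genotypes in T cells of the CD4 libraries. In the CD45 libraries, Itgb1 of the 1 Lag3KO library lay above both WT libraries in Tconv and below both in Tregs. With 1 library against 2, such a position is common without any difference, and the share of all genes with it was not counted. Among the 2 is the library labelled WT_CD45 2, whose Lag3 level goes against its label. Itga4 in Tconv averaged 91.9 ± 48.1 CPM in Lag3KO_CD4 and 104.6 ± 3.64 CPM in WT_CD4 (SD, n = 2 each), and the difference over both enrichments was -0.08 ± 0.23 log2. Itgb1 in Tconv averaged 271 ± 105.03 CPM in Lag3KO_CD4 and 324 ± 67.3 CPM in WT_CD4 (SD, n = 2 each), at -0.03 ± 0.20 log2. The make-up of Tconv varied between the CD4 libraries, by the clusters described below as states. The state led by Ccl1 and Il2 made up 3.27% to 26.3% of Tconv, and that led by Gzmk and Ramp3 7.38% to 32.0%. The part of these shares in the Tconv levels was not tested. Among the CD4 libraries both VLA-4 chains were lowest in the first Lag3KO_CD4 library, and the spread within Lag3KO_CD4 was wider than the gap between the means. In Tregs the differences were -0.24 ± 0.23 log2 for Itga4 and -0.28 ± 0.19 log2 for Itgb1, each with an adjusted p of 1.

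The 2 genes with an unadjusted p under 0.05 in Tregs were Itgb7 and Klf2. Itgb7 had 460.3 and 437 CPM in Tregs of the Lag3KO_CD4 libraries against 551 and 602 CPM in the WT_CD4 libraries, which do not overlap. With 2 libraries against 2, such a position is common without any difference, and the share of all genes without overlap was not counted. Itgb7 had 436 CPM in the Lag3KO_CD45 library against 409 and 616 CPM in the WT_CD45 libraries, which do overlap. The 616 CPM is of the library labelled WT_CD45 2, without which the Lag3KO_CD45 value lies above the WT_CD45 value. With that library counted as WT, the log2 difference of Itgb7 was -0.34 ± 0.13 (unadjusted p = 0.0171, adjusted p = 1). Klf2 had 719 and 865 CPM in Tregs of the Lag3KO_CD4 libraries against 846 and 1252 CPM in the WT_CD4 libraries, and 15.2 CPM in the Lag3KO_CD45 library against 19.8 and 28.3 CPM in the WT_CD45 libraries. Klf2 had 14 UMIs in all over the 124 Tregs of the CD45 libraries. Its log2 difference, with the same library counted as WT, was -0.41 ± 0.16 (unadjusted p = 0.0222, adjusted p = 1). In Tconv, Klf2 had 611 and 1011 CPM in the Lag3KO_CD4 libraries against 712 and 1328 CPM in the WT_CD4 libraries, at -0.16 ± 0.26 log2, and the other 8 genes lay between -0.08 and 0.07 log2.

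The LFA-1 chains, Selplg, S1pr1 and Cd44 did not pass the test between genotypes either. In Tregs the differences were 0.16 ± 0.14 log2 for Itgal, 0.02 ± 0.14 for Itgb2, 0.07 ± 0.11 for Selplg, -0.16 ± 0.18 for S1pr1 and -0.31 ± 0.20 for Cd44. Selplg in Tregs averaged 872 ± 26.5 CPM in Lag3KO_CD4 and 847 ± 79.4 CPM in WT_CD4 (SD, n = 2 each). The 8 genes tested in monocytes or macrophages lay between -0.25 ± 0.17 log2 for Itgb1 and 0.25 ± 0.26 for Klf2.

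**Figure D3:**
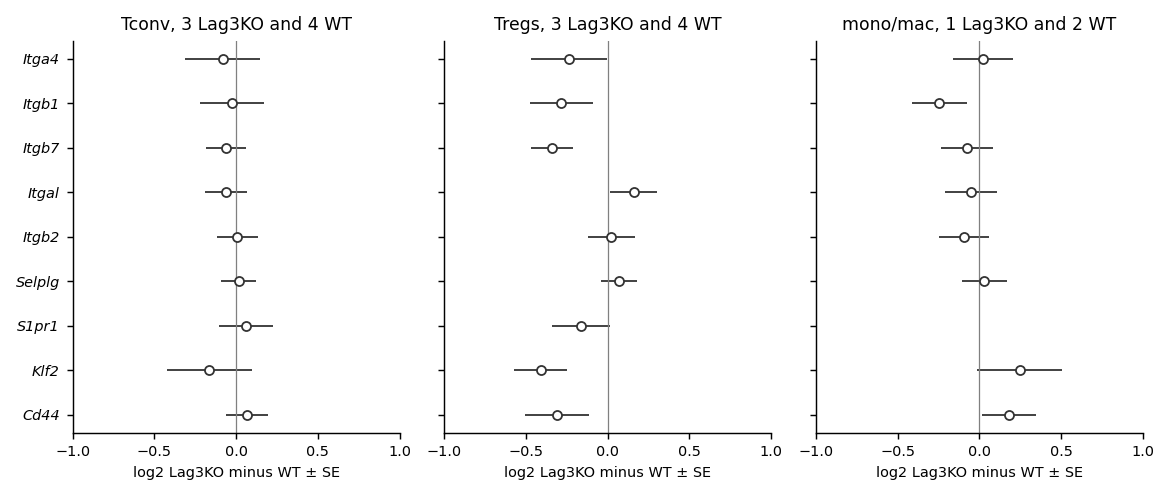
Log2 difference ± SE of Lag3KO minus WT for each gene in Tconv and Tregs over both enrichments and in monocytes or macrophages of the CD45 libraries, where S1pr1 was not tested. No difference passed an adjusted p of 0.05; the farthest from 0 is Klf2 in Tregs at -0.41.

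Within the CD4 libraries 0 of 9 were called by edgeR in Tconv (0.0319% of genes called) and in Tregs (0.115%), with 0 and 2 of 9 at an unadjusted p under 0.05, the 2 being Itgb7 and Klf2. Within the CD45 libraries, which set 1 Lag3KO library against 2 WT libraries, 0 of 9 were called in Tconv (0%) and in Tregs (0%), with 0 and 0 of 9 at an unadjusted p under 0.05, and Itgb1 in Tregs was at -0.92 ± 0.63. The genotype difference did not differ by the test between the CD4 and CD45 libraries in Tconv for any of the 9 (0% of genes called; 0 of 9 at an unadjusted p under 0.05). It did not differ by the test between Tregs and Tconv (0.0867% of genes called; 1 of 9, Cd44, at an unadjusted p under 0.05), nor between Tconv and monocytes or macrophages (0.065%; 1 of 9, Itgb1, at 0.64 ± 0.25, and at 0.89 with no test without the library labelled WT_CD45 2). DESeq2 called 0 of the 9 genes in each of these comparisons. Without the library labelled WT_CD45 2, the count stayed at 0 in each genotype comparison that could still be tested.

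Pathway lists around the 9 genes showed no called gene between genotypes either. Of 21 other integrin subunits 7 were tested in Tconv and 5 in Tregs, of 18 genes of integrin activation 16 and 15, of 12 genes of selectin ligand synthesis 9 and 7, of 17 genes of lymphocyte egress and recirculation 15 and 14, and of 12 ligands 5 and 5. edgeR called 0 of them in both classes over both enrichments. The genes of any fixed list called between genotypes were all from the list of 20 myeloid genes. Apoe, a lipid carrier, was at -1.18 ± 0.23 log2 in Tregs over both enrichments (adjusted p = 0.0467). In Tregs within the CD4 libraries, H2-Aa, an MHC class II chain, was at 2.70 ± 0.39 (adjusted p = 0.00816), and Lgals3, a galectin of macrophages, at 0.84 ± 0.15 (adjusted p = 0.0486). Plac8 was at 0.77 ± 0.13 in the difference of the genotype effect between Tregs and Tconv (adjusted p = 0.00023). The summed level of the 20 myeloid genes in Tregs was 3337 to 3575 CPM in Lag3KO_CD4 and 3027 to 3062 CPM in WT_CD4, and 5262 CPM in Lag3KO_CD45 and 5528 to 6434 CPM in WT_CD45.

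The same lists were counted between cell classes, with the genes named here chosen after their values were seen. Between Tconv and monocytes or macrophages, where 59.8% of all genes tested were called, 4 of 6 other integrin subunits tested were lower in Tconv, among them Itgam, the alpha chain of Mac-1, at -6.95 ± 0.36 log2 and Itgax, the CD11c chain, at -3.02 ± 0.39. Of 15 genes of integrin activation, 6 were higher and 2 lower in Tconv, with Skap1, an adaptor that carries signals from the T cell receptor to integrins, at 6.77 ± 0.19 and Rassf5, which binds the tail of the LFA-1 alpha chain, at 1.40 ± 0.16. Of 13 egress and recirculation genes, 5 were higher and 8 lower, with S1pr4, another sphingosine 1-phosphate receptor, at 5.10 ± 0.22. Of 6 ligands 1 was higher and 5 lower, with Fn1, the fibronectin gene, at -6.29 ± 0.22 and Icam1 at -2.98 ± 0.25. Of 5 genes of selectin ligand synthesis, 1 was higher and 4 lower.

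Between Tregs and Tconv, where 11.9% of all genes tested were called, 3 of 4 other integrin subunits tested were higher in Tregs. Itgae, the alpha chain that pairs with the Itgb7 product to bind E-cadherin, was at 2.91 ± 0.30 log2 (adjusted p = 1.48e-06). Itgav was at 1.49 ± 0.15 and Itga6 at 0.85 ± 0.21. Of the other lists, 1 gene was higher and 1 lower of 15 for integrin activation, 1 and 1 of 7 for selectin ligand synthesis, 2 and 1 of 14 for egress and recirculation, and 2 and 0 of 3 for ligands.

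Across the 11 classes with at least 20 cells in each of the 3 CD45 libraries, the 9 genes had different leading classes. Gamma delta T cells, cycling T cells and neutrophils had fewer cells in at least 1 of these libraries and are outside this order. The first of these, with 51 cells in the Lag3KO_CD45 and 32 in the first WT_CD45 library, had 649 and 589.8 CPM of Itgb7, 253 and 206 CPM of Itgal, 1140.6 and 1142 CPM of Selplg, and 205 and 318 CPM of Cd44. Their mean over these 2 libraries was above that of every one of the 11 classes for these 4 genes. Itga4 was led by migratory dendritic cells, at 278 to 357 CPM over the 3 libraries, above the range of every other class; Tconv ranked 8 of 11 at 62.9 to 86.1 CPM. Itgb1 was led by NK cells at 299 to 383 CPM, above Tconv at 189 to 275 CPM. Tregs ranked 10 of 11 for Itgb1, with a range that overlaps those of plasmacytoid dendritic cells above and B cells below.

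Among the 11 classes, Itgb7 was led by Tregs at 409 to 616 CPM, then Tconv at 348 to 395 CPM, and migratory dendritic cells were lowest at 18.1 to 32.1 CPM. Those cells were also lowest for Itgal (4.15 to 10.7 CPM) and Itgb2 (18.7 to 21.4 CPM), so they combined the highest Itga4 with the lowest LFA-1 chains. For Itgal, Tconv and NK cells were on top of the 11 and overlapped, at 153 to 165 CPM and 119.9 to 185 CPM. For Itgb2, monocytes or macrophages at 275 to 313 CPM and Tconv at 256 to 276 CPM stood on top and overlapped.

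Of the 11 classes, Selplg was highest in migratory dendritic cells at 1013 to 1146 CPM and lowest in B cells at 76.5 to 115 CPM. S1pr1 was a lymphocyte gene in these libraries: B cells had 61.2 to 81.6 CPM, CD8 T cells 40.8 to 94.9 CPM, Tconv 40.4 to 58.8 CPM and Tregs 19.8 to 53.1 CPM, with each range overlapping the next. NK cells had 6.31 to 24.7 CPM, and 205 plasmacytoid dendritic cells gave 0 UMIs, where 3 UMIs would be 2.86 CPM. Klf2 was led by B cells (148 to 203 CPM), microglia (132 to 204 CPM) and NK cells (100.99 to 185 CPM), with overlapping ranges, and Cd44, among the 11, by plasmacytoid dendritic cells (176 to 271 CPM) and monocytes or macrophages (167 to 210.1 CPM).

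**Figure D4:**
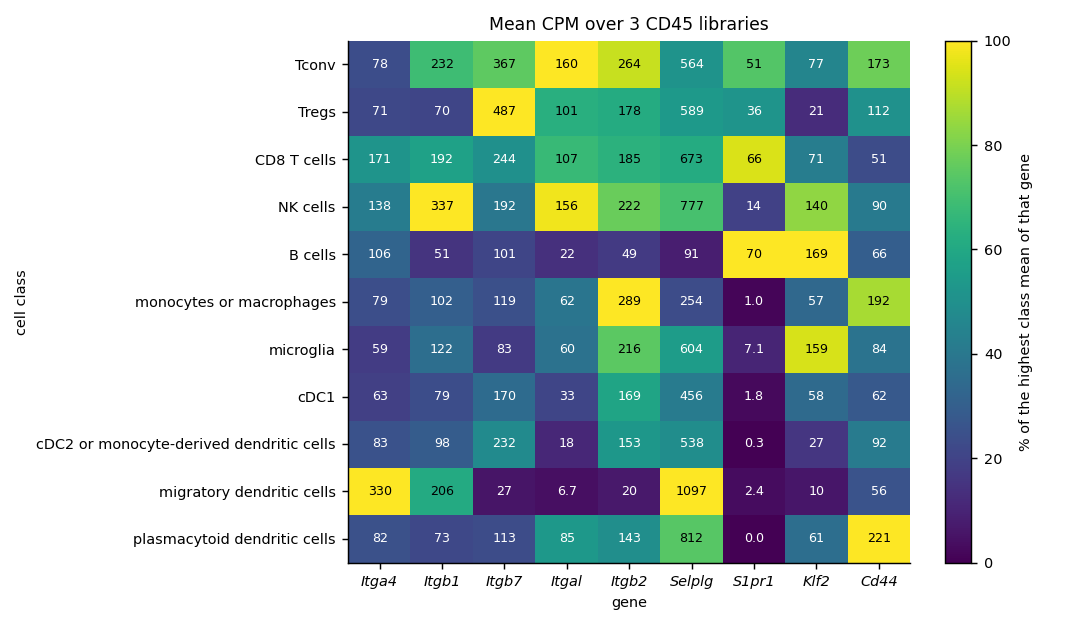
Mean CPM of each gene (printed) in each of the 11 cell classes with at least 20 cells in each of the 3 CD45 libraries, with the colour giving the percentage of that gene's highest class mean. The row of migratory dendritic cells has the highest mean for Itga4 and Selplg and the lowest for Itgb7, Itgal and Itgb2.

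Microglia, the resident macrophages of the brain, had other levels than monocytes or macrophages in the CD4 libraries. There, Itgb2 had 456 and 452 CPM in microglia of the Lag3KO_CD4 libraries and 429 and 480.5 CPM in those of the WT_CD4 libraries, above the 277 to 410.4 CPM of monocytes or macrophages. In the CD45 libraries the order was the other way, with Itgb2 at 210 to 221 CPM in microglia and 275 to 313 CPM in monocytes or macrophages. Selplg had 1278 and 1476 CPM in microglia of the Lag3KO_CD4 libraries and 1619 and 1944 CPM in those of the WT_CD4 libraries, the highest class there. Itga4 was almost lacking in those microglia, at 9.00 and 5.29 CPM in Lag3KO_CD4 and 0 and 0 CPM in WT_CD4, yet stood at 58.1 CPM in Lag3KO_CD45 and 60.04 and 57.4 CPM in WT_CD45 microglia. Microglia of the CD45 libraries numbered 20 to 85 per library. Lyz2, among the marker genes of monocytes or macrophages, stood at 9563 CPM in their cluster. In the microglia clusters of the CD4 libraries Lyz2 stood at 472 and 919 CPM. The part of monocyte or macrophage RNA in the Itga4 levels was not tested. No test was made for microglia.

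The genes whose pattern over the 11 classes was most like each of the 9 were listed by Pearson's r of log2(CPM + 10), averaged over 3 libraries, as a description without a test. For Itgb7 they were Rwdd1 (0.970), Rassf5 (0.946) and Cd48 (0.940). For Itga4 they were Epb41 (0.932), Vti1b (0.894) and Epsti1 (0.889), and for Itgb1 Nrbp1 (0.910), Prex1 (0.894) and Ccl5 (0.847). For Itgal they were Rnf7 (0.943), Tpst2 (0.928) and 2010107E04Rik (0.926), and for Itgb2 Ndufa10 (0.931), Ssbp4 (0.924) and Ccr2 (0.912). For S1pr1 they were Gm8369 (0.973), Rpl24 (0.963) and Gm17430 (0.942), and for Klf2 Sorl1 (0.883), mt-Nd2 (0.840) and Igbp1 (0.839). For Selplg they were Rnaset2b (0.858), Vps72 (0.853) and Arhgap1 (0.821), and for Cd44 Trappc2l (0.858), Dnajb11 (0.852) and Cers2 (0.837). Among the 9 themselves the closest pair was Itgal with Itgb2 at 0.765, the chains of LFA-1, while the VLA-4 pair Itga4 and Itgb1 had 0.524. All classes come from the same 3 libraries.

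Within CD4 T cells of the CD4 libraries, the genes varied between states, which are clusters named here by their leading genes and described without a test. Klf2 and S1pr1 were highest in the state led by Igfbp4, Ccr7 and Dapl1, which also had Tcf7, a transcription factor gene of naive and memory T cells, among its top 10 genes. Klf2 had 1289.7 to 2293 CPM and S1pr1 185 to 213 CPM there over the 4 libraries. Both were lowest in the state led by the cytokine genes Ccl1, Il2 and Csf2, with 169 to 624 CPM of Klf2 and 7.04 to 40.2 CPM of S1pr1. The ranges of these states did not overlap for either gene.

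Itga4 was high in the states led by Ccl5 and Nkg7 (111 to 205 CPM) and by Gzmk and Ramp3 (124 to 197 CPM); Gzmk and Nkg7 encode cytotoxic granule proteins and Ccl5 a chemokine. It was low in the Ccl1 and Il2 state (30.8 to 47.9 CPM) and in the state led by AA467197 and Ifitm2 (26.0 to 76.9 CPM). Itgb1 was high in the Ccl5 and Nkg7 state (259 to 507 CPM) and in the AA467197 and Ifitm2 state (258 to 425 CPM). The ranges of the Ccl5 and Nkg7 state lay above those of the Ccl1 and Il2 state for both VLA-4 chains.

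Itgb7 was highest among Tconv states in the AA467197 and Ifitm2 state at 557 to 664 CPM, against 241 to 403 CPM in the Gzmk and Ramp3 state. Itgb2 had 107 to 166 CPM in the state led by Mrps5 and Lmo4 and 270.3 to 373 CPM in the Ccl1 and Il2 state. Cd44 was highest in the Ccl1 and Il2 state (141 to 197 CPM) and the AA467197 and Ifitm2 state (141 to 208 CPM). It was lowest in the Treg state led by Ikzf2 and Tox (20.3 to 49.5 CPM), which also had 1013 to 1518 CPM of Klf2. In the CD45 libraries the Tconv state led by Ccl1 and Nrgn had, of the 3 measured, the least Klf2 (5.43 to 11.6 CPM) and Itgb1 (73.8 to 92.2 CPM), while the state led by Ramp3 and Slamf6 had 98.5 to 287 CPM of Klf2 and 408 to 463 CPM of Itgb1. Klf2 is itself among the leading genes of that state.

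**Figure D5:**
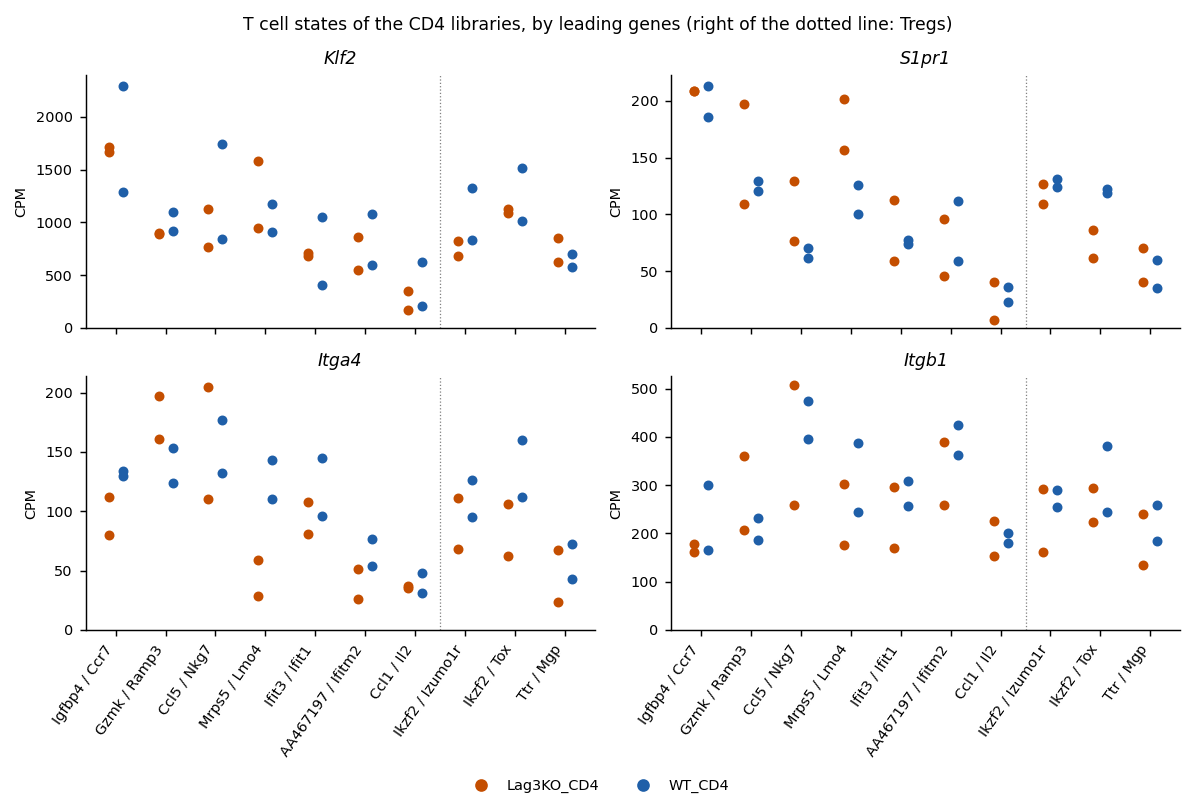
Level (CPM, linear axes from 0) of Klf2, S1pr1, Itga4 and Itgb1 in the T cell states of the CD4 libraries, 1 point per library. Klf2 lies at 1289.7 to 2293 CPM in the Igfbp4 and Ccr7 state and at 169 to 624 CPM in the Ccl1 and Il2 state, and S1pr1 at 185 to 213 CPM and 7.04 to 40.2 CPM; states right of the dotted line are Tregs.

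CD4 and CD45 libraries differed in several of the 9 genes within the same class, in comparisons added after these levels were seen. Klf2 was higher in the CD4 libraries in Tconv, Tregs, monocytes or macrophages and microglia, the 4 named classes with at least 20 cells in each of the 7 libraries. In Tregs it had 719 to 1252 CPM in the CD4 libraries and 15.2 to 28.3 CPM in the CD45 libraries, a ratio of means of 43.6 and a log2 difference of 5.40 ± 0.26 (adjusted p = 1.16e-10). Klf2 had 14 UMIs over the 124 Tregs of the CD45 libraries. In Tconv it had 611 to 1328 CPM in the CD4 and 50.5 to 92.1 CPM in the CD45 libraries, a ratio of 11.97 and 3.56 ± 0.30 log2 (adjusted p = 3.45e-06). In monocytes or macrophages it had 339.8 to 531 CPM in the CD4 and 41.6 to 64.3 CPM in the CD45 libraries, a ratio of 7.25 and 2.66 ± 0.18 log2 (adjusted p = 3.57e-06). In microglia, which were not tested, the ratio was 5.56.

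In Tconv 4 of 9 genes were called, where 9.16% of 9400 genes were, in Tregs 4 of 9, where 18.2% of 7841 were, and in monocytes or macrophages 2 of the 8 tested, where 7.67% of 4983 were. Without the Lag3KO_CD45 library, the genes called among all tested numbered 410 in Tconv, 759 in Tregs and 126 in monocytes or macrophages, against 861, 1430 and 382; without the library labelled WT_CD45 2, 440 in Tconv and 247 in monocytes or macrophages. S1pr1 was higher in the CD4 libraries by 0.79 ± 0.19 log2 in Tconv (adjusted p = 0.0166) and 1.44 ± 0.26 in Tregs (adjusted p = 0.000762). Selplg was higher by 0.40 ± 0.11 in Tconv (adjusted p = 0.0324, and by DESeq2 0.39, adjusted p = 0.0524, so that DESeq2 called 3 of 9 there) and 0.49 ± 0.12 in Tregs (adjusted p = 0.0056). Itgb1 was higher in Tregs of the CD4 libraries by 1.79 ± 0.26 (adjusted p = 7.94e-05) and in Tconv was at 0.28 ± 0.20 (adjusted p = 0.443). Cd44 was lower in Tconv of the CD4 libraries, at -0.53 ± 0.13 (adjusted p = 0.0215), and Itgal in their monocytes or macrophages, at -1.16 ± 0.27 (adjusted p = 0.0229).

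Klf2 stayed called in all 3 classes when each library was left out. In Tconv it was the only one of the 4 to stay when any 1 of the CD45 libraries was left out, with adjusted p-values of 0.058 to 0.146 for S1pr1, Selplg and Cd44. Without the second WT_CD4 library S1pr1 (adjusted p = 0.0713) and Selplg (0.181) were lost in Tconv, and without the first Cd44 (0.074). Selplg in Tregs was lost without the Lag3KO_CD45 library (adjusted p = 0.0502). Itgal in monocytes or macrophages was lost without either Lag3KO_CD4 library, the second WT_CD4 library or the Lag3KO_CD45 library (adjusted p = 0.0576 to 0.31). With classes cut by marker genes, Klf2 alone of the 9 was called in Tconv, and without the clusters led by Ttr, Cd44 in Tconv was at -0.35 ± 0.16 (adjusted p = 0.187). Beside the sex that goes with the enrichment, and any batch, which the labels do not name, the median UMIs per barcode of Tconv also differed. They were 1797.5 to 2261 in the CD4 and 3184 to 3251 in the CD45 libraries. The 20 myeloid genes summed to 3394 to 3919 CPM in Tconv of the CD4 and 5461 to 6418 CPM in Tconv of the CD45 libraries. The 14 immediate early genes summed to 4463 to 5133 CPM in Tconv of the CD4 and 3851 to 5304 CPM in Tconv of the CD45 libraries. Mitochondrial transcripts summed to 27443 to 29672 CPM in Tconv, 26005 to 30241 CPM in Tregs and 25456 to 29603 CPM in monocytes or macrophages of the CD4 libraries, against 20994 to 21450.4, 16079 to 18870.3 and 17249 to 19615 CPM in those of the CD45 libraries, with no overlap. Foxp3 in Tregs, as given above, also differed, at 10.7 CPM in the CD4 and 120.4 CPM in the CD45 libraries. So did the number of genes listed, at 27998 in the CD4 and 28692 in the CD45 libraries. The make-up of Tconv differed too, with states clustered apart in each enrichment. The state led by Ccl1 and Il2 was 3.27% to 26.3% of Tconv in the CD4 libraries. That led by Ccl1 and Nrgn was 27.2% to 36.2% in the CD45 libraries. The part of each in these differences was not tested.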

How the data were processed

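Single-cell libraries were made with 10x 3′ chemistry, and the authors deposited unnormalized UMI counts per gene and barcode, made with Cell Ranger (version 3.0.2 per the file headers of the CD4 libraries) on GRCm38 or mm10, per the submitters' processing notes. A UMI count sums molecules, so depth differs between libraries and the low genes are measured with more counting error in small classes. Barcodes with under 200 genes or over 10% mitochondrial UMIs and doublets called at 0.8% per 1000 barcodes were left out. CD4 and CD45 libraries were clustered apart with scikit-learn 1.9.0, igraph 0.11.9 and leidenalg 0.10.2. The settings were 2000 variable genes without the 9 members, 30 components and Leiden resolution 1, and clusters were named from marker lists. Barcodes with at least 2 T cell UMIs making up 5 per 10000 and with myeloid UMIs at 150 per 10000 were set apart.

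Counts were summed per library and class (at least 20 cells) and tested with edgeR 4.0.16 (TMM, filterByExpr, quasi-likelihood), with DESeq2 1.42.0 as an alternative; the scripts were tested on simulated data. All 9 members are named; of the other lists, genes past an adjusted p of 0.05 between genotypes are, and those named from other comparisons were chosen after their values were seen. The members and lists were chosen with earlier results of these data known. Comparisons between enrichments and within them were added after levels were seen. Likeness used log2(CPM + 10).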

Additional observations from a re-analysis of the deposited data

Results flagged for a closer look

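The difference between Tregs and Tconv was not the same in the CD4 and the CD45 libraries for Itgb1 and Klf2, by an interaction term fitted with edgeR over all genes. For Itgb1, the beta chain of VLA-4, the CD4 minus CD45 value was 1.45 ± 0.22 log2 (adjusted p = 1.53e-05), and Tregs were below Tconv in 7 of 7 libraries. For Klf2 it was 1.76 ± 0.38 log2 (adjusted p = 0.00238), and was not called without the Lag3KO_CD45 library, as given above. Of all genes tested, 5.04% were called. Klf2 in Tregs was at 719 to 1252 CPM in the CD4 and 15.2 to 28.3 CPM in the CD45 libraries. The CD45 values came from 14 UMIs over 124 cells. Klf2 in Tconv also differed between the enrichments, at 611 to 1328 CPM in the CD4 and 50.5 to 92.1 CPM in the CD45 libraries. Sex and the list of genes counted go with the enrichment, so these cannot be told apart. The labels name no processing batch, and a batch that goes with the enrichment could not be told apart from it either. Foxp3 in Tregs was at 10.7 CPM in the CD4 and 120.4 CPM in the CD45 libraries, and its part in these differences was not tested.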

How the results depend on the processing

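Libraries could not be paired between groups, because replicate numbers here follow accession order and the labels pair no libraries. Comparisons between classes took the library as a block, so classes were compared within each library. No difference of the 9 genes that had been called changed sign, and the count of called members was 0 in every genotype comparison under every alternative run. The count in Tconv between CD4 and CD45 libraries was 1 when classes were cut by marker genes, against 4; the cause was not tested. Leaving out 1 library gave 1 to 4 called members there, 3 to 4 in Tregs and 1 to 2 in monocytes or macrophages. For Tregs minus Tconv it gave 3 to 5 within the CD4 libraries, 3 to 6 within the CD45 libraries and 1 to 2 for the difference between them. For Tconv minus monocytes or macrophages it gave 7 to 7. In fits of 1 Lag3KO with 1 WT library no residual degree of freedom is left, and Klf2 in monocytes or macrophages had values of 0.63 and -0.04 with no test.

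Counts over all genes moved more. Without a filter on low counts, genotype calls numbered 58 in Tconv and 50 in Tregs over both enrichments, 46 and 50 within the CD4 libraries, 28 and 23 within the CD45 libraries, 21 for the difference between enrichments and 127 in monocytes or macrophages; Tregs minus Tconv had 1245, and CD4 minus CD45 had 1325 in Tconv and 614 in monocytes or macrophages. With a haemoglobin block, genotype calls were 5, 24, 9, 20 and, in Tregs of the CD45 libraries, 8. With the marker gate they were 6 in Tconv, 5 in Tconv and 3 in Tregs within the CD4 libraries, 1 in Tconv of the CD45 libraries and 23 in monocytes or macrophages, and CD4 minus CD45 had 369 and 237; it gave no value for Tregs across the enrichments. Clustering mixed barcodes with the rest, or members among the variable genes, gave 14 and 14 in Tregs over both, 5 and 3 in Tregs of the CD45 libraries, and 211 and 164 for the difference of Tregs minus Tconv between enrichments. DESeq2 gave 551 for Tregs minus Tconv within the CD4 libraries and 211 for that difference. Library size alone moved the share of higher calls from 51.4% to 68.4% for Tregs minus Tconv and from 48.8% to 61.3% for CD4 minus CD45 in Tconv. Small classes limit depth, and Tregs of the CD45 libraries, for example, numbered 28 to 62 cells per library.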
